A study of Mus musculus with 120 samples.

Results

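Neurotransmitter receptor subunits are the genes whose products bind GABA, glutamate, acetylcholine, serotonin, glycine or dopamine at the cell surface. They were taken from the cell table of a mouse study by gene symbol, over 11 families of ionotropic and metabotropic receptors. The rule found 90 of the 23154 genes in the table, and used no measured value. The families were GABA-A (19 genes), GABA-B (2), AMPA (4), kainate (5), NMDA (7), metabotropic glutamate (8), nicotinic (16), muscarinic (5), serotonin (14), glycine (5) and dopamine (5).

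RNA was sequenced from E14/TG2A, a line of mouse embryonic stem cells. KO cells had had an enhancer named Enh9E deleted with CRISPR-Cas9, and WT cells had not been edited. At day 8 (D8) the cells, named as neural progenitors in the labels, had gone through neural differentiation, and at day 0 (D0) they were undifferentiated stem cells. The groups were KO D8 (3 libraries), WT D8 (2), KO D0 (3) and WT D0 (2). Where Enh9E lies and which gene it acts on are not stated in the labels, and no check of the deletion was made. Whether replicates were clones or separate cultures is not stated either, and the spread on which p-values rest may be technical. All 10 libraries carry the same cell line, and the labels name no driver, marker or sort.

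An ionotropic receptor is a channel built of several subunits that opens when its transmitter binds. A metabotropic receptor is a single protein or a pair that acts through G proteins. GABA and glycine channels pass chloride, and AMPA, kainate, NMDA, nicotinic and serotonin-gated channels pass cations. In the developing nervous system neural progenitors already carry some of these receptors, and more subunits are switched on as neurons mature.

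Libraries held 5.96 to 13.2 M (mega) counts, and levels are in CPM, counts per M after TMM scaling. A level of 1 CPM stands for few reads, so counting error is large for the weakest subunits. At D8 the markers of pluripotent stem cells had fallen in both lines (10 of 10 in KO, 10 of 10 in WT). Of 10 neural progenitor markers, 9 had risen in KO and 9 in WT, and Sox1 and Pax6 were present in every D8 library. Of 14 neuron markers, 9 were higher and 2 lower at D8 than at D0 in KO, and 11 were higher and 0 lower in WT. Summed, they already stood at 307, 235 and 248 CPM in KO D0 and at 321 and 364 CPM in WT D0. KO D8 replicate 1 had 319 CPM, so presence of these markers alone does not show neurons in a library. In KO the median difference from WT over genes of chromosomes 6, 11 and 14 was 0.45, 0.24 and 0.50 on the log2 scale at D8, against 0.30, 0.20 and 0.47 at D0. The deletion and other differences between the lines cannot be told apart.

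Most receptor genes were silent or nearly so. At D8, 26 of 90 reached 1 CPM in every KO library (28.9%, against 54.2% of all genes) and 31 did in every WT library (34.4%, against 55.4%). At D0 there were 18 in KO and 17 in WT. Summed over the 90 genes, KO D8 libraries held 304, 276 and 281 CPM and WT D8 libraries 569 and 504 CPM. KO D0 libraries held 287, 261 and 298 CPM, and WT D0 libraries 262 and 218 CPM. The WT D8 libraries thus stood above all others, and the other groups lay close together. The counting filter passed 40 receptor genes, which were tested. The other 50 were not: none exceeded 1.59 CPM in any library, the highest being Gabra4, and 1 of them had no count at all. No dopamine receptor gene was tested, and of the 14 serotonin receptor genes only Htr3a was.

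**Figure D1:**
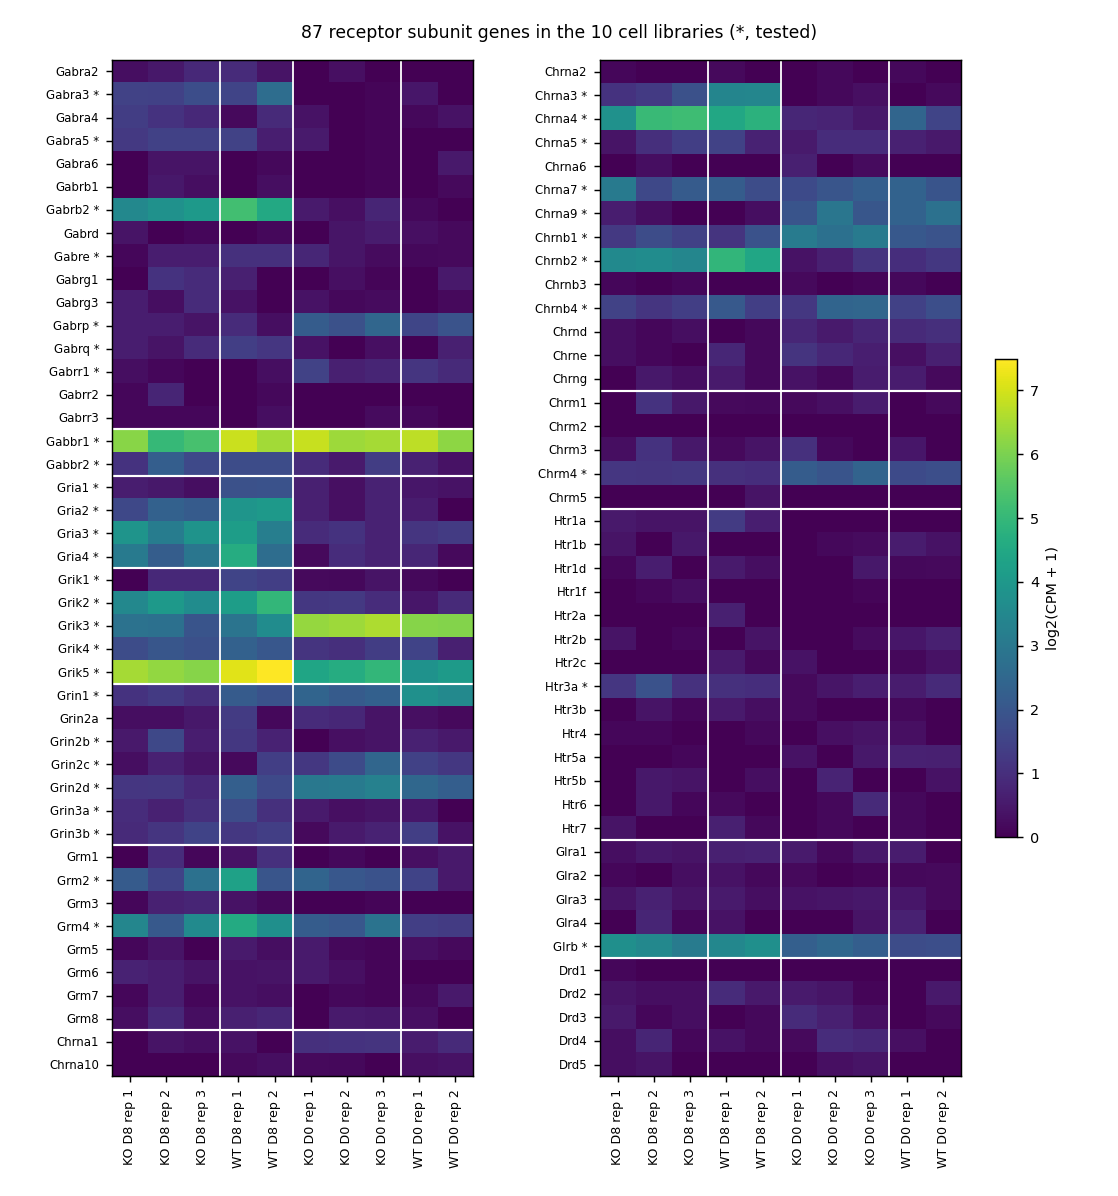
Level of 87 receptor subunit genes in the 10 cell libraries, as log2(CPM + 1), with groups along the columns and families separated by white lines; an asterisk marks the 37 of these that were tested. The brightest rows include Grik5 and Gabbr1 in all groups, Grik3 at D0, and Gabrb2, Grik2, Chrnb2 and Chrna4 at D8.

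The first comparison asked which receptor genes differed between KO and WT cells after differentiation. At D8, 10 receptor genes were lower in KO than in WT and none was higher. They covered 6 of the 11 families: GABA-A, GABA-B, AMPA, kainate, NMDA and nicotinic. Of the 10, 9 are described one by one. The 10 genes are 25.0% of those tested, beside 8.24% of all 14629 tested genes called lower and 12.5% called higher (edgeR's quasi-likelihood test, Benjamini-Hochberg adjusted p under 0.05). A gene can pass the filter through the group in which it is high, so this share is a description of the tested genes. Every KO D8 library lay below every WT D8 library in 19 of the 40 and in 3241 of all 14629 tested genes. The reverse held in 2 of the 40 and in 3706 of all. Of the 40, 33 had a negative log2 fold change, and the median was -0.90 beside 0.02 over all tested genes. At an unadjusted p under 0.05 none was higher and 15 were lower, and the share of all tested genes at that threshold was not counted. DESeq2 called none higher and 11 lower, beside 1819 and 1839 of all tested genes.

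The number of calls depended on which libraries were compared. Without WT D8 replicate 1 there were 6 genes called lower, of which 4 (Chrna3, Gria1, Gria2 and Grik5) were among the 10, and without KO D8 replicate 3 there were 5, all among the 10. With the 5 D8 libraries fitted alone, 5 were called: Chrna3, Chrnb2, Gria1, Gria2 and Grik5. Calls fell over the whole table too. With all libraries 1205 of all tested genes were called lower, against 805 without KO D8 replicate 3 and 313 with the D8 libraries alone. Over all tested genes, scaling by total counts shifted the median KO minus WT difference at D8 by -0.21 on the log2 scale. The split of all calls, 1834 higher and 1205 lower, then became 1053 higher and 1739 lower, and with DESeq2's size factors 1450 higher and 1566 lower. The 10 receptor genes kept their calls under both scalings.

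Markers of other cell types moved in the same comparison. Neuron markers, summed over 14 genes, stood at 319, 611 and 647 CPM in KO D8 and at 2059 and 1223 CPM in WT D8, and 11 of the 14 were lower in KO. Neural progenitor markers stood at 1287, 1132 and 1377 CPM in KO D8 and at 1803 and 1949 CPM in WT D8, with 3 of 10 lower. Endoderm markers stood at 365, 555 and 815 CPM in KO D8 and at 92.1 and 85.0 CPM in WT D8, and 5 of the 5 tested were higher. Epithelial markers stood at 209, 500 and 477 CPM in KO D8 and at 81.9 and 87.9 CPM in WT D8, with 3 of 4 higher. Summed receptor genes and summed neuron markers were thus both lower in KO D8 than in WT D8. Within KO D8, replicate 1 had the lowest neuron sum (319 CPM) and the highest receptor sum (304 CPM). Within WT D8, replicate 1 had the higher of both sums (2059 and 569 CPM). Of the 7 glial markers tested 1 was higher, of the 10 pluripotency markers 2 were higher, and of the 5 neural crest markers 1 was higher. No muscle or mesoderm marker was called, and the muscle regulators Myod1 and Myog stayed at or below 0.106 CPM in every D8 library. No marker list had a gene at 0 in all libraries. The part of these markers in the receptor differences was not tested. In bulk RNA, fewer cells of a type and less RNA per cell cannot be told apart.

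**Figure D2:**
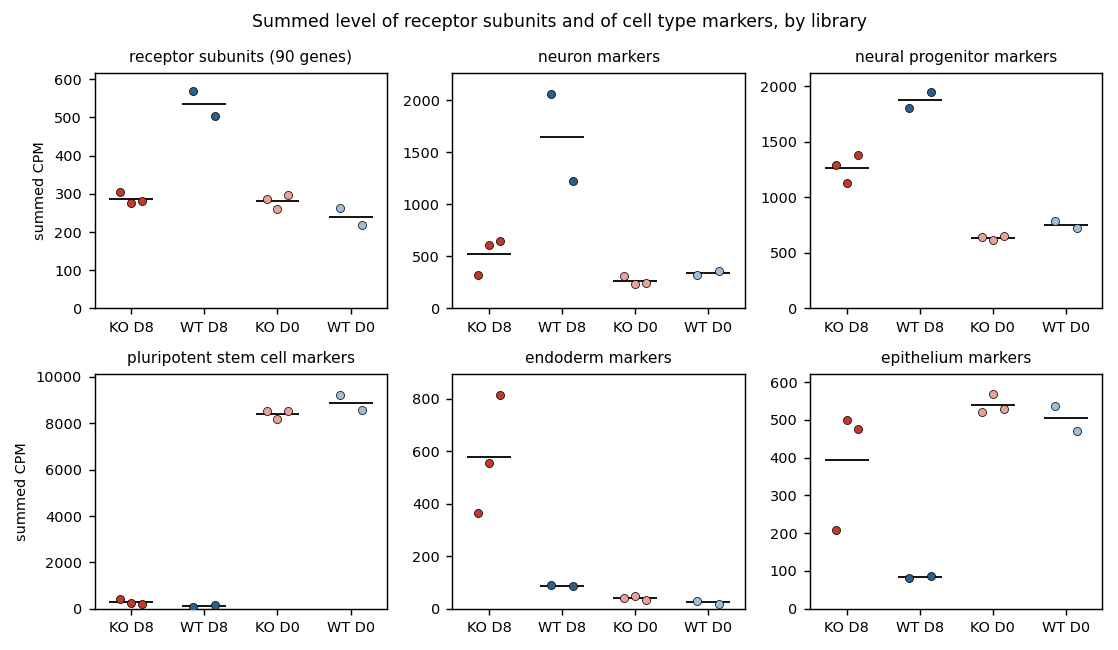
Summed CPM of the 90 receptor subunits and of 5 marker lists in each library (points) with group means (lines), for KO D8, WT D8, KO D0 and WT D0. Receptor subunits and neuron markers were highest in the 2 WT D8 libraries, and endoderm markers were highest in the 3 KO D8 libraries.

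**Figure D3:**
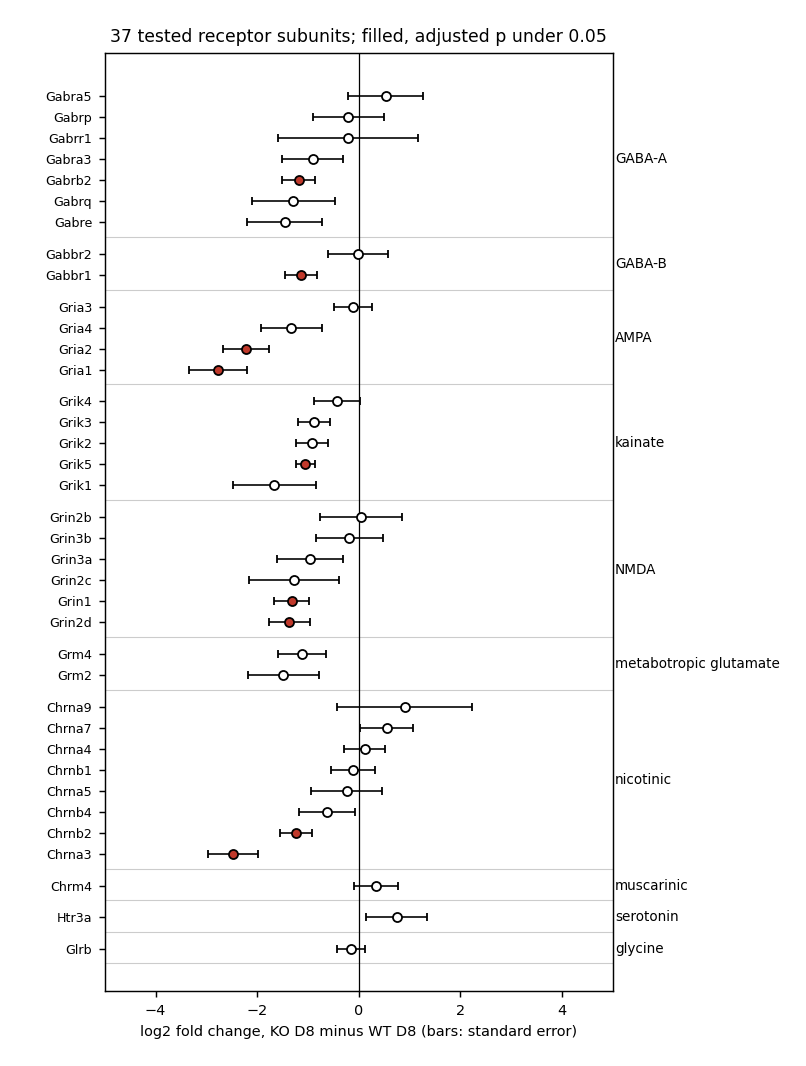
Log2 fold change of KO D8 minus WT D8 with its standard error for 37 tested receptor subunits, grouped by family; filled points passed an adjusted p of 0.05. Values left of 0 are lower in KO, and the 9 filled points all lie there, from -1.05 (Grik5) to -2.77 (Gria1).

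GABA-A receptors are the main inhibitory chloride channels of the brain and are built of 5 subunits drawn from several classes. Gabrb2, a beta subunit on chromosome 11, had 10.4, 12.75 and 15.7 CPM in KO D8 and 36.7 and 22.1 CPM in WT D8. The KO libraries lay below both WT libraries, and the log2 fold change was -1.18 ± 0.32 (edgeR, adjusted p = 0.0279). The median of all genes on that chromosome was higher in KO. Without WT D8 replicate 1 it missed the threshold (edgeR, adjusted p = 0.205).

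Of the GABA-A subunits not called, the alpha subunits Gabra3 and Gabra5 had log2 fold changes of -0.91 and 0.53, with standard errors of 0.60 and 0.74. These standard errors are large, so differences of that size were not detectable with these libraries. The 2 WT D8 libraries had 1.92 and 5.47 CPM for Gabra3 and 1.77 and 0.536 CPM for Gabra5. Gabrq and Gabre, the theta and epsilon subunits, stood at -1.29 ± 0.82 and -1.45 ± 0.74 on the same scale.

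The GABA-B receptor is metabotropic and pairs 2 proteins. Gabbr1, which binds GABA, had 71.1, 31.2 and 38.7 CPM in KO D8 and 119 and 86.7 CPM in WT D8. It was among the highest receptor genes in counts in every group, and its log2 fold change was -1.13 ± 0.31 (edgeR, adjusted p = 0.0278). KO D8 replicate 1 lay near the lower WT library. The call was lost without WT D8 replicate 1 or 2 (edgeR, adjusted p = 0.157 and 0.0503) and without KO D8 replicate 2 or 3 (edgeR, adjusted p = 0.0644 and 0.0746). Gabbr2, which couples the receptor to G proteins, had 1.16, 3.70 and 2.12 CPM in KO D8 and 2.37 and 2.36 CPM in WT D8, and its log2 fold change was -0.02 ± 0.59.

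AMPA receptors carry fast excitation by glutamate. Gria2, the subunit that limits calcium entry once its RNA has been edited, had 2.11, 4.01 and 3.43 CPM in KO D8 and 14.04 and 15.8 CPM in WT D8. Every KO library was far below both WT libraries, with a log2 fold change of -2.22 ± 0.46 (edgeR, adjusted p = 0.00806). Gria1, a subunit with a part in synaptic plasticity, had 0.528, 0.411 and 0.202 CPM in KO D8 and 2.66 and 2.68 CPM in WT D8. The WT libraries agreed closely and the KO libraries stayed near their undifferentiated level, and the log2 fold change was -2.77 ± 0.57 (edgeR, adjusted p = 0.00783). Gria1 is on chromosome 11 too.

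Gria3 and Gria4, the remaining AMPA subunits, were not called. Gria3 had 13.8, 7.81 and 13.4 CPM in KO D8 and 17.2 and 8.26 CPM in WT D8, with a log2 fold change of -0.11 ± 0.37. Gria4 had 7.29, 3.598 and 6.66 CPM in KO D8 and 24.1 and 5.47 CPM in WT D8. Its WT libraries were far apart, and the log2 fold change of -1.32 ± 0.59 did not pass (edgeR, adjusted p = 0.131).

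Kainate receptors are glutamate channels that act at and beside synapses. Grik5, a high-affinity subunit that forms channels only together with Grik1, Grik2 or Grik3, had 88.3, 76.5 and 68.6 CPM in KO D8 and 143 and 179 CPM in WT D8. The groups did not overlap, and the log2 fold change was -1.05 ± 0.19 (edgeR, adjusted p = 0.00436), the smallest p among receptor genes. Grik2, a pore-forming subunit, had 10.3, 15.4 and 11.6 CPM in KO D8 and 16.9 and 30.2 CPM in WT D8, at -0.93 ± 0.32 (edgeR, adjusted p = 0.0587). Grik3 had 6.13, 5.76 and 2.83 CPM in KO D8 and 6.36 and 11.5 CPM in WT D8, at -0.88 ± 0.31 (edgeR, adjusted p = 0.0646). Grik2 and Grik3 lay just outside the threshold, and both were called lower by DESeq2 and with both other scalings. Grik1 and Grik4 had log2 fold changes of -1.66 ± 0.82 and -0.44 ± 0.45.

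NMDA receptors need glutamate and glycine together and pass calcium. Grin1, the glycine-binding subunit that every NMDA receptor contains, had 1.16, 1.44 and 1.01 CPM in KO D8 and 3.40 and 2.68 CPM in WT D8, with a log2 fold change of -1.32 ± 0.35 (edgeR, adjusted p = 0.0232). Grin2d, a glutamate-binding subunit known from the early brain, had 1.27, 1.34 and 0.807 CPM in KO D8 and 3.84 and 2.14 CPM in WT D8, with a log2 fold change of -1.37 ± 0.40 (edgeR, adjusted p = 0.0348). Both were weak in all D8 libraries, and KO lay below WT throughout. Without WT D8 replicate 1 the adjusted p was 0.111 for Grin1 and 0.212 for Grin2d, and without KO D8 replicate 3 it was 0.0534 and 0.0757. Grin1 also missed the threshold without WT D8 replicate 2 (edgeR, adjusted p = 0.0514), and Grin2d without KO D0 replicate 2 (edgeR, adjusted p = 0.0585). Grin2b, Grin2c, Grin3a and Grin3b were not called, with log2 fold changes from -1.27 to 0.05.

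Among the metabotropic glutamate receptors, Grm4 and Grm2 passed the filter. Both act through G proteins that lower cyclic AMP. Grm4 had 9.93, 3.29 and 11.1 CPM in KO D8 and 23.1 and 12.3 CPM in WT D8, at -1.12 ± 0.47 on the log2 scale (edgeR, adjusted p = 0.110). Grm2 had 3.49, 1.85 and 5.95 CPM in KO D8 and 18.5 and 2.90 CPM in WT D8, at -1.48 ± 0.69 (edgeR, adjusted p = 0.146). The spread of Grm2 between the WT libraries was larger than that between the groups.

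Nicotinic receptors are cation channels opened by acetylcholine. Chrna3, an alpha subunit best known from autonomic ganglia, had 1.16, 1.44 and 2.62 CPM in KO D8 and 9.61 and 9.86 CPM in WT D8. The groups stood well apart, with a log2 fold change of -2.47 ± 0.49 (edgeR, adjusted p = 0.00704). Chrnb2, the beta subunit of the main brain receptor, had 10.8, 11.4 and 9.79 CPM in KO D8 and 29.4 and 20.7 CPM in WT D8, with a log2 fold change of -1.23 ± 0.32 (edgeR, adjusted p = 0.0210). Without WT D8 replicate 1 Chrnb2 missed the threshold at an adjusted p of 0.137, and without KO D8 replicate 3 at 0.0516. Chrna4, the alpha subunit that pairs with Chrnb2, had 12.8, 32.6 and 34.7 CPM in KO D8 and 21.6 and 27.5 CPM in WT D8, at 0.12 ± 0.40, and the groups overlapped. The remaining nicotinic genes tested, Chrna5, Chrna7, Chrna9, Chrnb1 and Chrnb4, had log2 fold changes from -0.62 to 0.91, and none passed.

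The last 3 families had 1 tested gene each. Chrm4, a muscarinic receptor, stood at 0.35 ± 0.44, Htr3a, a subunit of the serotonin-gated channel, at 0.75 ± 0.61, and Glrb, the glycine receptor subunit that binds the anchor protein gephyrin, at -0.16 ± 0.28 on the log2 scale. Glrb had 12.3, 10.3 and 7.67 CPM in KO D8 and 10.1 and 12.3 CPM in WT D8.

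**Figure D4:**
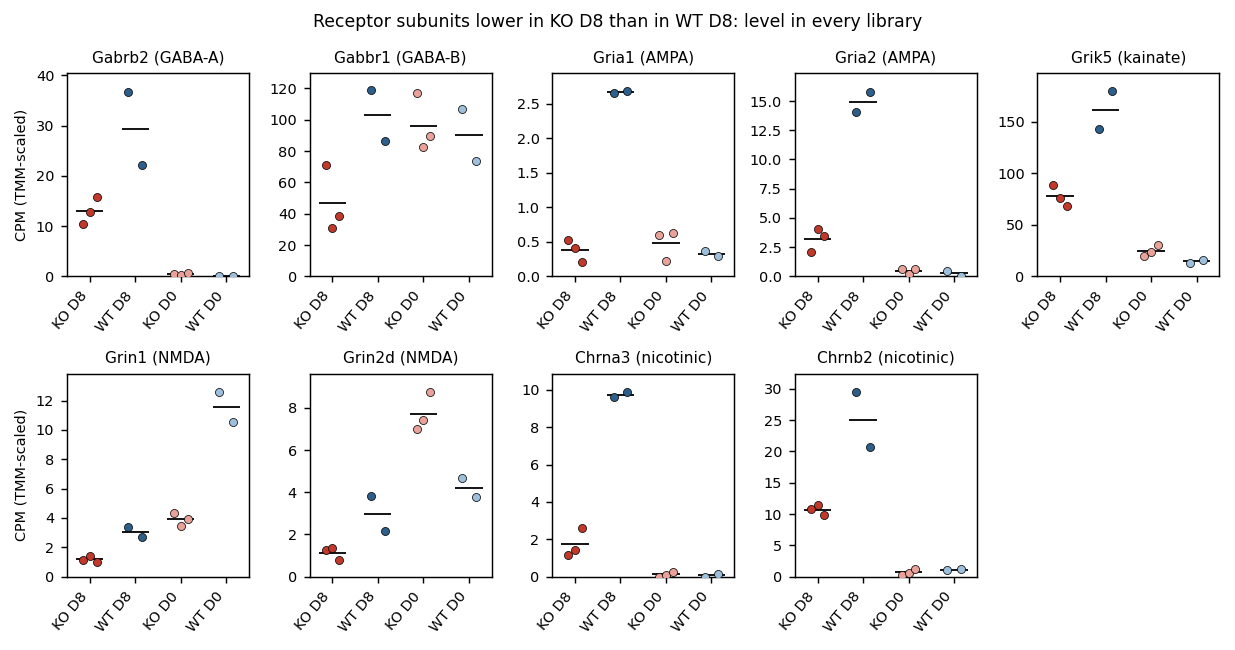
CPM in every library (points) with group means (lines) for 9 receptor subunits called lower in KO D8 than in WT D8, each panel from 0 on its own axis. In all 9 panels the KO D8 points lie below the WT D8 points, as they do in 3241 of all 14629 tested genes. Grin1 stands highest in WT D0 and Grin2d in KO D0.

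RefSeq annotates other genes over 5 of these 9. Grik5 overlaps Zfp574, Chrna3 overlaps Chrna5, Chrnb2 overlaps Adar, and Grin1 overlaps Lrrc26 and the antisense RNA Grin1os. Gabrb2 overlaps a long non-coding RNA. Whether counting used strand is not given in the sources used here, and reads of such pairs cannot be told apart.

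The sequences before the start sites of 4 of the called genes are shown because these genes moved together at D8 (Gria2, Chrna3, Grik5) or differed between the days (Grik5, Grin2d, below). Each is the 250 bases upstream of the annotated start in RefSeq on GRCm38.p6, read 5′ to 3′ along the gene, which is on the minus strand in all 4. Capitals mark matches on either strand to 2 motifs. The first is the core of RE1, the element bound by REST, a repressor of neuronal genes, searched as AGCACC and GGACAG with 2 free bases between them. The second is GGGCGG, the GC box bound by Sp factors. The windows are chr3:80802836-80803085 for Gria2, chr9:55026563-55026812 for Chrna3, chr7:25072370-25072619 for Grik5 and chr7:45866682-45866931 for Grin2d.
Gria2: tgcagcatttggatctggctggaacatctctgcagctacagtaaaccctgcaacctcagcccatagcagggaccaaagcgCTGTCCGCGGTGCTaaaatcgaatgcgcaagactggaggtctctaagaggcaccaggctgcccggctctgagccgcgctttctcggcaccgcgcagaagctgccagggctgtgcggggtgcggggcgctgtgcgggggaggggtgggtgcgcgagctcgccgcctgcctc
Chrna3: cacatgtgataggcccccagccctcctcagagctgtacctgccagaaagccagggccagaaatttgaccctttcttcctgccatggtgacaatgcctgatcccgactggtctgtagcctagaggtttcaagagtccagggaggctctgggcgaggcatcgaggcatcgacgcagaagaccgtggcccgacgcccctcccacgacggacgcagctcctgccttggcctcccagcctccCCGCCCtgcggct
Grik5: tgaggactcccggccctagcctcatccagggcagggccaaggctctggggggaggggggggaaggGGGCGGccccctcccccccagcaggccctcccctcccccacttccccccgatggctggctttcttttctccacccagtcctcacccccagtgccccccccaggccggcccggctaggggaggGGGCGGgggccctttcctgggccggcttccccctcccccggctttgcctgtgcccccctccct
Grin2d: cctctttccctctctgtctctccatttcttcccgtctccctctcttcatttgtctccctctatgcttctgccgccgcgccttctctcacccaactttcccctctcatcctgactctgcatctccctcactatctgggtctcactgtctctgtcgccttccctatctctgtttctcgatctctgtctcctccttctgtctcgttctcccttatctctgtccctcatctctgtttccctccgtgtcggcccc

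The RE1 core was found once in these 4 windows, in Gria2, beginning 170 bases before the start. It occurs in 15 of 32851 promoter windows of the same length (0.0457%), and in 1 of the 79 windows of receptor genes. GC boxes begin 185 and 63 bases before the start of Grik5 and 13 bases before that of Chrna3. They occur in 32.7% of all windows and in 46.8% of those of receptor genes, which have a median GC content of 58.8% beside 52.4% over all. Grin2d has neither in its window. A gene with several annotated starts has several windows. The receptor genes matched by symbol were 68 of 90, and 8 of the 10 called; Gria1 was not among them. A match of letters is a description of the sequence, and binding was not measured in these cells.

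The next comparison set KO against WT in undifferentiated cells, where no receptor gene was called in either direction, beside 0.185% of all tested genes called higher and 0.0889% called lower. At an unadjusted p under 0.05, 6 receptor genes were higher and 2 lower, with no count over all tested genes to set beside them. DESeq2, which called 319 of all tested genes higher and 125 lower, called the receptor gene Grik5 higher and Grin1 and Chrna4 lower. The nearest to the threshold was Grin1, with 4.31, 3.43 and 3.95 CPM in KO D0 and 12.6 and 10.6 CPM in WT D0, a log2 fold change of -1.57 ± 0.30 (edgeR, adjusted p = 0.0568). Its KO libraries were well below its WT libraries at D0 as at D8. Chrna4 had 0.743, 0.686 and 0.395 CPM in KO D0 and 4.45 and 1.88 CPM in WT D0, at -2.44 ± 0.62 (edgeR, adjusted p = 0.115). Grik5 had 20.2, 24.01 and 30.4 CPM in KO D0 and 13.2 and 16.1 CPM in WT D0, at 0.78 ± 0.21 (edgeR, adjusted p = 0.144), the opposite sign from D8. Grin1 was called lower without KO D8 replicate 1 or 2, and Chrna4 without KO D8 replicate 1. Over all tested genes those 2 fits called 119 and 95 lower, against 13 with all libraries. Those D8 libraries enter this comparison only through the shared filter, scaling and estimate of spread.

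Over differentiation, more receptor genes changed, and in both directions. In KO, 15 were higher at D8 than at D0 (33.4% of all tested genes were higher) and 10 were lower (31.1%). In WT, 22 were higher (27.9%) and 6 were lower (29.3%). The median log2 fold change over the 40 tested was 1.25 in KO and 2.34 in WT, beside 0.05 and -0.05 over all tested genes. Under scaling by total counts the median over all genes shifted by 0.30 in WT. Receptor genes called higher in both lines numbered 13, and those called lower in both numbered 6. The share of all tested genes called in both lines was not counted, so these numbers are a description only.

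Of the 4 AMPA subunits 3 were higher at D8 in KO, and 4 were in WT. Gria2 had 2.11, 4.01 and 3.43 CPM in KO D8, against 0.595, 0.229 and 0.632 CPM in KO D0, a log2 fold change of 2.66 ± 0.54 (edgeR, adjusted p = 0.00125). It had 14.04 and 15.8 CPM in WT D8, against 0.494 and 0 CPM in WT D0, a log2 fold change of 5.75 ± 0.72 (edgeR, adjusted p = 5.25e-05). Gria2 was thus higher at D8 in both lines, and reached a higher level in WT. Gria3 rose by 3.73 ± 0.42 in KO and by 3.23 ± 0.49 in WT on the log2 scale. Gria1 was not called in KO (-0.36 ± 0.61) and was called higher in WT (2.96 ± 0.69); the difference between these is given with the days below.

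Kainate subunits exchanged over differentiation. Grik5 had 77.8 ± 9.9 CPM in KO D8 and 24.9 ± 5.2 CPM in KO D0 (SD, n = 3 each), and it had 161 ± 26 CPM in WT D8 and 14.6 ± 2.0 CPM in WT D0 (SD, n = 2 each). Its log2 fold change was 1.64 ± 0.18 in KO (edgeR, adjusted p = 1.49e-05) and 3.46 ± 0.24 in WT (edgeR, adjusted p = 9.63e-07). Grik2 rose by 3.36 ± 0.36 in KO and 5.26 ± 0.49 in WT. Grik3 went the other way, with 4.90 ± 1.81 CPM in KO D8 and 85.7 ± 7.9 CPM in KO D0 (SD, n = 3 each), and 8.91 ± 3.62 CPM in WT D8 and 68.8 ± 0.7 CPM in WT D0 (SD, n = 2 each). Its log2 fold change was -4.13 ± 0.28 in KO (edgeR, adjusted p = 4.70e-07) and -2.92 ± 0.32 in WT (edgeR, adjusted p = 1.96e-05). Grik3 was thus lower at D8, whereas Grik2 and Grik5 were higher.

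GABA receptor subunits also split. Gabrb2 had a log2 fold change of 4.69 ± 0.42 in KO (edgeR, adjusted p = 3.04e-06). It had 454 counts over the WT D8 libraries and 1 over the WT D0 libraries, a ratio of 424 (95% counting interval 75.6 to 16760). Gabra3 and Gabra5 were called higher in both lines. Gabra5 had 17 counts in WT D8 and none in WT D0, so it was at least 5.29-fold higher, from a floor of 3 counts over the group; its call in WT was not made without WT D8 replicate 1 or WT D0 replicate 1. The pi subunit Gabrp, known mostly outside the brain, fell by 2.98 ± 0.52 in KO and by 2.16 ± 0.67 in WT, and the call in WT was lost without WT D0 replicate 2 (edgeR, adjusted p = 0.0803) and without WT D8 replicate 2 (adjusted p = 0.147). The rho subunit Gabrr1, known from the retina, had 3 counts in KO D8 and 26 in KO D0, a ratio of 0.112 (interval 0.0216 to 0.364), and it had 2 counts in WT D8 and 16 in WT D0, a ratio of 0.117 (interval 0.0130 to 0.496). Its call in WT was lost when any of the 4 WT libraries was left out (edgeR, adjusted p from 0.0515 to 0.196). Gabbr2 had 1.19 ± 0.56 in KO and was called higher in WT (2.32 ± 0.78), a call lost when any of the 4 WT libraries was left out (adjusted p from 0.0519 to 0.124).

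NMDA subunits moved in both directions. Grin1 fell by 1.68 ± 0.31 in KO and by 1.93 ± 0.35 in WT, and Grin2d fell by 2.76 ± 0.35 in KO and had -0.52 ± 0.41 in WT. Grin2c was called lower in KO (-2.85 ± 0.74). Grin3a was called higher in WT, with 26 counts at D8 and 3 at D0, a ratio of 8.08 (interval 2.48 to 41.7), and the call was lost without WT D0 replicate 2 (edgeR, adjusted p = 0.0848) and without WT D8 replicate 1 (adjusted p = 0.0897). Grin2b had 0.423, 2.06 and 0.505 CPM in KO D8 and 0, 0.229 and 0.316 CPM in KO D0. It was called higher in KO (2.20 ± 0.87), a call lost without KO D8 replicate 2 and made in 4 of 10 fits that left out a library and under 3 of 8 other settings. The obligatory subunit Grin1 was therefore at its highest in undifferentiated WT cells.

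Acetylcholine receptors and the rest followed both courses. Chrna3 rose by 3.53 ± 0.68 on the log2 scale in KO, and it had 157 counts in WT D8 and 1 in WT D0, a ratio of 146 (interval 25.9 to 5821). Chrnb2 rose by 3.81 ± 0.37 in KO and 4.44 ± 0.45 in WT, and Chrna4 by 5.50 ± 0.51 in KO and 2.93 ± 0.51 in WT. Chrna9, a subunit known from hair cells, fell by 4.03 ± 0.74 in KO, and it had 2 counts in WT D8 and 74 in WT D0, a ratio of 0.0252 (interval 0.00300 to 0.0943). Chrnb1, the beta subunit of the muscle receptor, fell by 1.95 ± 0.37 in KO and had -0.59 ± 0.47 in WT. Chrm4 fell by 1.48 ± 0.35 in KO and by 1.22 ± 0.46 in WT. The call of Chrm4 in WT was lost under 7 of 8 other settings and in 9 of 10 fits that left out a library. Without WT D0 replicate 2, or without WT D8 replicate 2, the count called lower in WT was 3.

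Glrb had 10.1 ± 2.3 CPM in KO D8 and 4.09 ± 0.52 CPM in KO D0 (SD, n = 3 each), and 11.2 ± 1.6 CPM in WT D8 and 2.40 ± 0.08 CPM in WT D0 (SD, n = 2 each). It was called higher in both lines, with log2 fold changes of 1.30 ± 0.26 in KO and 2.22 ± 0.35 in WT. Grm4 and Grm2 had 0.90 ± 0.45 and 0.18 ± 0.66 in KO and were called higher in WT (3.51 ± 0.63 and 3.15 ± 0.89). The call of Grm2 was lost without WT D8 replicate 1, where its log2 fold change was 1.40 (edgeR, adjusted p = 0.191), and without WT D0 replicate 2 (adjusted p = 0.0799).

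**Figure D5:**
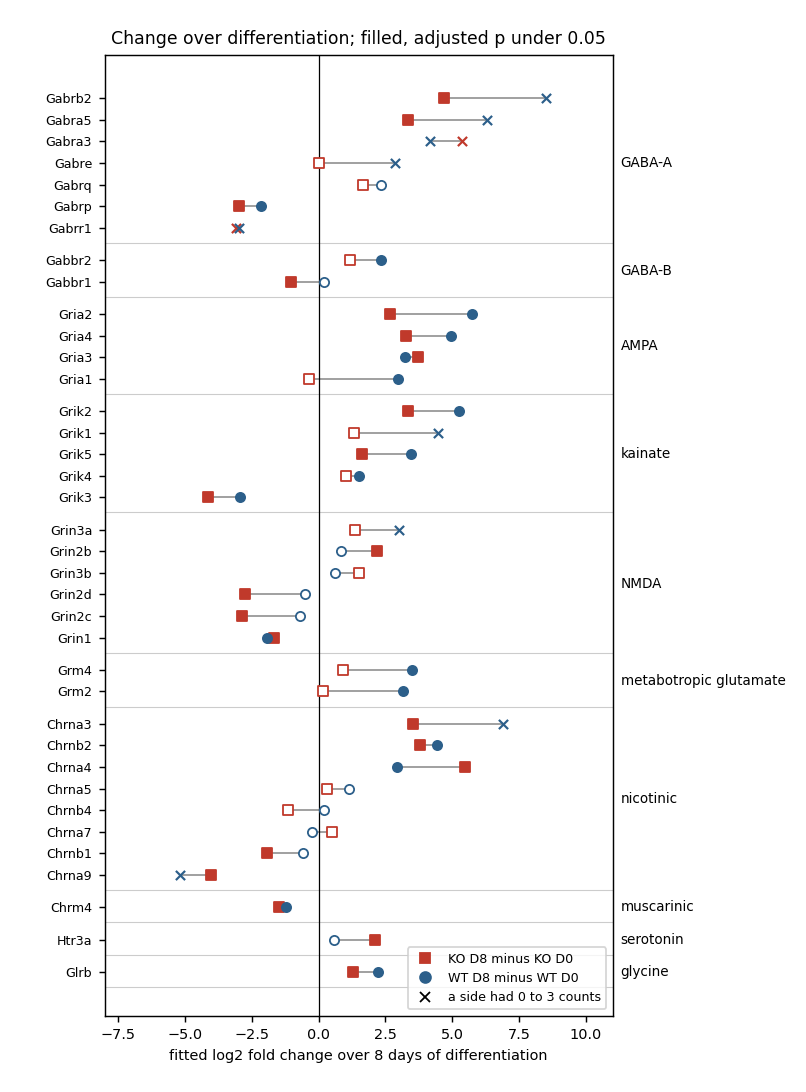
Fitted log2 fold change from D0 to D8 in KO (squares) and WT (circles) for 37 tested receptor subunits, by family; filled marks passed an adjusted p of 0.05, and crosses mark fits in which a side had 0 to 3 counts. Values right of 0 are higher at D8. Grik5 reached 1.64 in KO and 3.46 in WT, and Grin2d -2.76 in KO and -0.52 in WT.

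Whether the KO minus WT difference itself changed between the days was tested as an interaction. None was more positive at D8 (3.0% of all tested genes were) and 2 were more negative (2.76%). At an unadjusted p under 0.05 there were 1 and 12, with no count over all tested genes to set beside them. DESeq2 called 1 and 7, beside 895 and 885 of all tested genes. Grik5 had an interaction of -1.83 ± 0.29 (edgeR, adjusted p = 0.0112): the KO minus WT log2 fold change was -1.05 at D8 and 0.78 at D0. Its rise over differentiation was thus smaller in KO than in WT. Without WT D0 replicate 1 or WT D0 replicate 2 the adjusted p was 0.0695 or 0.0613. Grin2d had 1.27, 1.34 and 0.807 CPM in KO D8 and 3.84 and 2.14 CPM in WT D8, and it had 6.99, 7.43 and 8.77 CPM in KO D0 and 4.69 and 3.76 CPM in WT D0. KO lay below WT at D8 and above it at D0, and the interaction was -2.24 ± 0.54 (edgeR, adjusted p = 0.0394). The call of Grin2d was lost in 7 of the 10 fits that left out a library, with adjusted p from 0.0658 to 0.150: each KO D0 library, both WT D0 libraries, KO D8 replicate 3 and WT D8 replicate 1. Without WT D0 replicate 1 or 2 the interaction was -1.75 or -2.05 for Grik5 and -2.46 or -2.16 for Grin2d. Without KO D8 replicate 1 there were 8 receptor genes more negative and 1 more positive. Over all tested genes that fit called 1544 more negative and 2047 more positive, against 404 and 439 with all libraries.

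Interactions of other receptor genes did not pass. Gria1 had -3.31 ± 0.93 (edgeR, adjusted p = 0.0586), Gria2 -3.09 ± 0.98 (adjusted p = 0.0801) and Grm4 -2.62 ± 0.76 (adjusted p = 0.0646). Chrna4 had 2.56 ± 0.74 (edgeR, adjusted p = 0.0631), with the opposite sign. For the other genes called in one line and not in the other, a difference between the lines is not shown.

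The genes that make, load, clear or anchor the transmitters and their receptors were taken as 5 lists with 65 genes. Of the 7 genes for GABA synthesis and transport, 4 were lower in KO D8 than in WT D8 and none was higher (median -1.66, beside 0.02 over all genes). Over all tested genes, 8.24% were called lower and 12.5% higher in that comparison. Gad1, which makes GABA, had 2.11, 1.65 and 2.42 CPM in KO D8 and 8.43 and 5.90 CPM in WT D8, a log2 fold change of -1.78 ± 0.37 (edgeR, adjusted p = 0.00843). Abat, which breaks GABA down, had 14.9, 12.3 and 16.4 CPM in KO D8 and 30.2 and 26.9 CPM in WT D8, at -0.97 ± 0.22 (edgeR, adjusted p = 0.0124). In both genes KO D8 lay below WT D8 in every library. In WT, Abat and Gad2 were higher at D8 than at D0, by 3.14 ± 0.28 and 5.43 ± 0.93 on the log2 scale.

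Of the 8 tested genes for glutamate and glycine, 3 were lower in KO D8 and none was higher (median -0.78). Slc17a6, which loads glutamate into vesicles, had 1.27, 2.47 and 3.23 CPM in KO D8 and 12.1 and 21.98 CPM in WT D8, at -2.87 ± 0.48 (edgeR, adjusted p = 0.00324). Slc1a2, a glutamate transporter best known from astrocytes, had 7.61, 5.55 and 11.4 CPM in KO D8 and 66.1 and 24.98 CPM in WT D8, at -2.47 ± 0.43 (edgeR, adjusted p = 0.00368). The transporter Slc1a1 was lower at D8 than at D0 in WT (-2.21 ± 0.52). Of the 9 tested monoamine genes, 2 were lower and none higher, and the median was positive (0.21). Th, which starts catecholamine synthesis, had 0.740, 0.617 and 0.706 CPM in KO D8 and 4.14 and 8.15 CPM in WT D8, at -3.14 ± 0.50 (edgeR, adjusted p = 0.00278), and Slc18a2, the vesicular monoamine transporter, had -2.05 ± 0.34. In WT, Slc18a2 and Maob, which degrades monoamines, were higher at D8 than at D0, by 3.39 ± 0.44 and 3.73 ± 0.62, and Ddc, which makes dopamine and serotonin from their precursors, was lower, at -2.78 ± 0.51.

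Of the 29 tested scaffolds and auxiliary subunits, 10 were lower in KO D8 and none was higher (median -0.74). Shank1, a scaffold of excitatory synapses, had 5.18, 6.17 and 4.74 CPM in KO D8 and 18.9 and 21.6 CPM in WT D8, at -1.91 ± 0.25 (edgeR, adjusted p = 0.00141). Cacng7, an auxiliary subunit of AMPA receptors, had 16.0, 10.5 and 8.78 CPM in KO D8 and 29.9 and 28.6 CPM in WT D8, at -1.32 ± 0.28 (edgeR, adjusted p = 0.00939). Cacng4 and Cnih2, which assist AMPA receptors as well, were higher at D8 than at D0 in WT, by 6.71 ± 0.62 and 4.63 ± 0.41, and Pick1, which binds the tail of Gria2, was lower (-0.72 ± 0.17), a call lost under scaling by total counts (edgeR, adjusted p = 0.0732), without WT D0 replicate 1 (0.0613) and without WT D8 replicate 1 (0.0812). Of the 2 tested acetylcholine genes neither was called between KO D8 and WT D8, and the median was positive (1.07). Ache, which breaks acetylcholine down, had 8.77, 26.5 and 29.8 CPM in KO D8 and 14.04 and 4.29 CPM in WT D8, with groups that overlapped. At D0 no gene of the 5 lists was called between KO and WT.

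Similarity of pattern was described over the 10 libraries by Pearson correlation of log2(CPM + 1) among the receptor genes, for the 3 called genes with the smallest p. Grik5 was most like Grik2 (r = 0.97) and Gabrb2 (0.964), Chrna3 most like Gria2 (0.976) and Chrnb2 (0.923), and Gria1 had a correlation of 0.827 with Chrna3. The 10 libraries share 2 days and 2 lines, so these values mostly describe the group means.

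The same genes were also counted in 18 RNA libraries of ICR mouse embryos between E6.5 and E7.5, in 9 groups of 2 libraries normalized apart from the cells. Embryos of this age have no neurons. The libraries came from the extra-embryonic part (ExE) or from embryonic regions, named Epi at E6.5, A and P later, and AM at E7.5. Of the 90 genes, 26 reached 1 CPM in both libraries of at least 1 group. At E7.5 there were 17 in A, 15 in P, 15 in AM and 3 in ExE. At E7.0 there were 11 in A, 10 in P and 2 in ExE, and at E6.5 there were 10 in Epi and 5 in ExE. The share of all genes at 1 CPM lay between 43.5 and 49.8% in all 9 groups. These counts ask for the level in both libraries, and a count from 1 library can only equal or exceed them. With replicate 1 of ExE left out, 16 receptor genes reached 1 CPM in ExE at E6.5 and 19 at E7.0. With replicate 2 left out there were 11 and 6. The highest counts from 1 embryonic library were 18 in E6.5 Epi, 17 in E7.0 A and 16 in E7.0 P. At E7.0, 1 ExE library thus stood above every embryonic library and the other did not. At E7.5 the ExE libraries had 5 and 11, and each embryonic library had at least 15.

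Of the 10 genes called in the cells, most were weak in embryos. Gabbr1 reached 1 CPM in both libraries of 7 groups and Grik5 of 5, and Grik5 never exceeded 2.58 CPM. Chrna3 reached it in 2 groups, with 1.42 and 1.54 CPM in E7.5 A and 2.47 and 1.58 CPM in E7.5 AM. Gria1 and Chrnb2 reached it in 1 group each. Grik3, the kainate subunit with the most counts per M in undifferentiated cells, reached it in 8 groups, with 11.2 and 12.8 CPM in E6.5 Epi and 1.71 and 1.83 CPM in E6.5 ExE. The GABA-A subunit Gabra3 had 17.1 and 10.1 CPM in E7.5 A. The 2 E7.0 ExE libraries were far apart: Chrna3 had 0 and 7.56 CPM in replicates 1 and 2, and Gria2 0.601 and 6.48 CPM. Summed over the 90 genes they held 26.5 and 200 CPM. Replicate 2 had the fewest counts of the embryo libraries (5.15 M). No test was made between embryos and cells.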

How the data were processed

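RNA was measured in 10 cell libraries and 18 embryo libraries, each set deposited by the authors as a table of whole-number read counts for 23154 RefSeq genes; other samples of the 120 in the series were not analysed here. BWA, TopHat2 2.0.9, CASAVA 1.8 and the build mm10 are listed in the submitters' processing notes, with no role given. How reads were assigned to genes, and whether by strand, is not given in the sources used here. 6 embryo columns belong to no sample at hand and were not used. Of the cell gene names 27 read as dates and 2 were repeated; none is a receptor gene.

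Groups follow the labels. One edgeR quasi-likelihood fit (R 4.3.3, edgeR 4.0.16, limma 3.58.1) covered the 10 cell libraries with TMM scaling (factors 0.887 to 1.16) and edgeR's filter (minimum count 10, minimum total 15). It left 14629 genes, over which p-values of each of 5 contrasts were adjusted by Benjamini-Hochberg; a gene was called at an adjusted p under 0.05, and standard errors are the log2 fold change over the root of F. No p-value was adjusted over a list alone. CPM used the TMM-scaled totals. Embryo libraries were scaled apart and not tested. Alternatives were DESeq2 1.42.0, its size factors in edgeR, total counts, 2 other filters, the compared groups alone, the replicate number as a block, the median KO minus WT difference of each chromosome as an offset, and each library left out. Where a group had 0 to 3 counts, ratios are of pooled counts over pooled totals, with exact 95% intervals or a floor of 3 counts over the group, which cover counting error only.

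No 2 replicates were copies of one library (chi-square per degree of freedom of their counts 3.78 to 63.9). Tested on simulated data, the D8 comparison of KO and WT over 14260 genes recovered 37, 81.2 and 93.7% of genes changed 2, 4 and 8 fold, with 6 unchanged genes called. The interaction over 14280 genes recovered 8.22, 71.9 and 87.3%, with 7 unchanged genes called. Changed genes were drawn from those with a mean of 1 CPM or more, so these rates do not cover weaker genes. Before the change each simulated gene had the same mean in all groups, unlike the data.

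Members and lists were chosen with earlier results of these data known. Named in full were the receptor genes called between KO and WT or in the interaction; over differentiation, up to 2 rising and 2 falling per family in WT; from each other list, up to 2 called genes per direction in KO D8 against WT D8 and in WT over time. Other genes appear with their values only. 3 receptor genes enter the counts, sums and fits but are not reported here one by one. Positions and promoters are from RefSeq on GRCm38.p6, the assembly that mm10 names, with 90 of 90 receptor genes matched by symbol for positions.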

Additional observations from a re-analysis of the deposited data

Results flagged for a closer look

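A closer look was given to 6 genes in which the KO minus WT difference at D8 differed from that at D0. The test was of the difference itself, the interaction term of the edgeR fit. These are not all the genes it called: over all 14629 tested genes, 3.0% were more positive and 2.76% more negative. The 2 receptor subunits were Grik5, with an interaction of -1.83 ± 0.29 on the log2 scale (edgeR, adjusted p = 0.0112), and Grin2d, with -2.24 ± 0.54 (edgeR, adjusted p = 0.0394). In both the KO minus WT log2 fold change was negative at D8 (-1.05 and -1.37) and positive at D0 (0.78 and 0.87), where neither gene was called.

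The other 4 flagged genes belong to the lists of transmitter enzymes, transporters and receptor partners. In these lists the interaction called 1 GABA gene, 1 glutamate and glycine gene, 1 monoamine gene and 5 scaffolds or auxiliary subunits, all more negative. Shank1 had an interaction of -2.67 ± 0.38 (edgeR, adjusted p = 0.00942), from log2 fold changes of -1.91 at D8 and 0.76 at D0. Abat had -1.84 ± 0.35 (edgeR, adjusted p = 0.0207), from -0.97 at D8 and 0.87 at D0. Th had -3.54 ± 0.82 (edgeR, adjusted p = 0.0343), from -3.14 at D8 and 0.40 at D0. Cnih2 had -2.12 ± 0.50 (edgeR, adjusted p = 0.0349), from -1.07 at D8 and 1.06 at D0. The 4 groups held 2 or 3 libraries each, so no group was large enough to look for a single outlying library.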

How the results depend on the processing

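No called receptor gene that was recomputed changed direction under an alternative that gave a value, but calls near the threshold were lost or gained. Of 10 receptor genes called lower in KO D8 than in WT D8, 5 were called with the compared groups alone; the other settings gave 8 to 12, and leaving out a library gave 5 to 11. Of all tested genes, 1205 were called lower at D8 in the main fit and 313 with the compared groups alone. Between KO D0 and WT D0, edgeR called 27 of all tested genes higher and 13 lower, and DESeq2 319 and 125. With the compared groups alone the calls over all tested genes were 1099 and 934. Of the receptor genes edgeR called 0 there, and DESeq2 called 1 higher (Grik5) and 2 lower (Chrna4, Grin1). The compared groups alone gave 3 higher (Chrnb1, Grik5, Grm4) and the same 2 lower, and leaving out a library gave 0 higher and 0 to 2 lower. The count lower over differentiation in WT, 6, was 3 to 5 when a library was left out. The interaction, with 0 higher and 2 lower, had 1 higher (Chrna4) and 7 lower by DESeq2, and 0 to 1 higher and 0 to 8 lower when a library was left out. Leaving out a WT library leaves a lone sample in that group, assumed to vary like the others. Grm4, Chrnb1 and Chrna4 were named after their values were seen, and the cause of these changes was not tested. Receptor genes at the detection level in at least 1 embryo group, 26 at 1 CPM, were 41 at 0.5 CPM and 14 at 2 CPM.

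With the replicate number as a block, 8 receptor genes were called lower in KO D8 than in WT D8, with 3 lost, Grin1 and Grin2d among them, and Grm4 gained. The block gave 0 and 0 calls at D0, 16 higher and 10 lower over time in KO, 21 and 4 in WT, and 0 and 3 for the interaction (Gabbr1, Grik5, Grm4), where Grin2d had an adjusted p of 0.0588. Deviations of same-numbered KO and WT libraries of a day correlated at 0.17 and 0.092 at D0 and at 0.102 and 0.165 at D8, and those of the 2 days of a line from -0.039 to 0.041. With 2 such pairs a day and no shared batch in the labels, the numbers were not taken to pair the samples. With no filter, genes outside the 40 were called over differentiation from few counts: Gabra4, Grm3 and Htr1a higher and Chrna1 and Chrne lower in KO, and Gabra2 and Htr1a higher and Chrnd and Htr5a lower in WT.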

Other observations

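Chrna1, the alpha subunit of the muscle nicotinic receptor, had more CPM in replicate 2 than in replicate 1 in 9 of 9 embryo groups. It ranged from 2.89 to 19.6 CPM over the libraries of replicate 1 and from 15.7 to 134 CPM over those of replicate 2. The gene was singled out after its values were seen, and the difference was not tested.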
